A study of Mus musculus with 3 samples.

Results

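The genes described here are 10 actin contractility and smooth muscle genes: Acta2, Actn1, Tagln, Tagln2, Tgfb1i1, Cnn1, Cnn2, Tpm1, Tpm2 and Myl9. They were chosen by name, as actin cytoskeleton genes of mesenchymal and smooth muscle cells that depend on serum response factor (SRF), and are 10 of 18193 genes on the array. All 22 probe sets that carry one of these symbols alone were read. Expression was measured on 3 Affymetrix arrays, 1 per group, in sorted progeny of the mouse embryonic stem cell line A2.snail, which carries a Snail gene that doxycycline switches on. The cells had grown as embryoid bodies in medium with 10% fetal calf serum and DKK1, a secreted inhibitor of Wnt signalling, and were collected at day 3. The first group is Flk1- cells that received 0 ng/mL doxycycline (untreated Flk1-). The other two come from the Snail-induced condition, sorted as Flk1- and as Flk1+ (Snail-induced Flk1- and Flk1+ below), and received 250 ng/mL doxycycline from day 2. All 3 groups share the line, the transgene, the serum and DKK1. The sources used here do not say how many cultures went into each array. Neither untreated Flk1+ cells nor doxycycline-treated cells without the transgene were analysed here, so Snail and doxycycline cannot be told apart.

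Actin filaments pull when myosin II slides along them, and tropomyosins, calponins, transgelins and alpha-actinins set how the filaments are bundled and how readily myosin engages them. Many of these genes are targets of SRF, which binds a DNA element called the CArG box and is driven by the actin-sensing cofactors of the MRTF family and, in smooth muscle, by myocardin. Acta2, Tagln, Cnn1 and Myl9 are classic markers of smooth muscle and of contractile mesenchymal cells, and several also appear during epithelial to mesenchymal transition, the change of state that Snail is known to drive.

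Facts of the whole series can be given briefly. The median intensity over 45037 probe sets was 42.7, 42.4 and 44.6 in the order above. A value counts as measured from 25.6 upwards, a floor set at the 40th percentile of the pooled intensities, and 13969 genes reached it on at least 1 array. The single Snai1 probe set stood at 29.1, 13.1 and 19.8, near or under that floor throughout, and thus gives no check of the induction. Kdr, which encodes Flk1, stood at 10.5, 9.73 and 404, at least 15.8-fold higher on the Flk1+ array, a check of the sort and not a result. The 6 pluripotency markers examined were above the floor on every array.

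All values below are linear intensities, always in the order untreated Flk1-, Snail-induced Flk1-, Snail-induced Flk1+. Differences are on the log2(intensity + 9.53) scale, which understates the differences of dim genes, and a fold is 2 to the power of that difference. Where the dimmer value is under the floor, the fold is given as at least the brighter value over the floor; a gene is still counted by its difference, which concerns 0 of the 10 genes. With 1 array per group there is no spread between replicates, no test and no p-value; a difference is counted when it is at least 2-fold, and the number of arrays limits the precision. Because each array reads bulk RNA, fewer cells with a transcript and less of it per cell cannot be told apart.

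The smooth muscle label was first set against markers of differentiated smooth muscle. Of 8 such markers 5 were measured on at least 1 array. Myh11, the smooth muscle myosin heavy chain, stood at 10.9, 6.71 and 3.10, Lmod1, an actin nucleator of smooth muscle, at 13.7, 12.0 and 1.76, and Actg2, the enteric smooth muscle actin, at 11.6, 7.09 and 17.1, all under the floor on all 3 arrays. Myocd, which encodes myocardin, stood at 17.3, 26.3 and 31.9, at or just above the floor on the Snail-induced arrays. The other 4 were above the floor on all 3 arrays: Smtn, which encodes the actin-binding protein smoothelin, at 239, 269 and 376, Des, the intermediate filament gene desmin of muscle, at 89.6, 138 and 237, Mylk, a myosin light chain kinase gene, at 149, 82.4 and 146, and Synpo2 at 31.0, 33.9 and 32.2. Since the smooth muscle myosin heavy chain was under the floor while other markers were not, the 10 genes are called actin contractility genes below.

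Since the genes were chosen as SRF targets, their promoters were searched for the CArG box, and the stretches that hold one are printed here. RefSeq promoter windows of build GRCm38.p6, 250 bases before to 50 after a transcription start, were at hand for 8 of the 10 genes; Tagln and Tgfb1i1 had none. The strict CArG box was found in 2 of the 8, Cnn2 and Myl9, and in 1.63% of all 32851 windows. With 1 C or G allowed among its 6 core letters, a form searched only after the strict result was seen, Acta2 had 2 matches and Myl9 had 1, and 8.50% of all windows held one. Capitals mark strict and relaxed matches alike. The Cnn2 stretch lies at chr10:79988350-79988599 on the plus strand and ends at the base before the start, and its match spans bases 56 to 47 before the start. The Myl9 stretch lies at chr2:156775214-156775407 on the plus strand, with a strict match 161 to 152 bases and a relaxed match 99 to 90 bases before the start. It ends 57 bases before that start, because the annotated gene reaches past it. The Myl9 distances are thus not counted from the first annotated base of the gene. The Acta2 stretches are cut to 30 bases, at chr19:34255438-34255467 and chr19:34255388-34255417 on the minus strand. There the annotated gene reaches past the start as far as the matches or farther.
Cnn2: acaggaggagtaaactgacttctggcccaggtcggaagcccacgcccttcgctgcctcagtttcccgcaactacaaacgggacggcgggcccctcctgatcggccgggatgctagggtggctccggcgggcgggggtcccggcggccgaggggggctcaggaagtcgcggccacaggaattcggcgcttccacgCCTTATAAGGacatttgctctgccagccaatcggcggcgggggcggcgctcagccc
Myl9: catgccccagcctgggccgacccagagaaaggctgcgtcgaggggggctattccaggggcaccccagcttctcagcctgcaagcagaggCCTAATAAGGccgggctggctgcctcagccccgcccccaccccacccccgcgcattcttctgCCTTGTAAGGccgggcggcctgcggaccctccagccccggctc
Acta2, farther match: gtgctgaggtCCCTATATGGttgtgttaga
Acta2, nearer match: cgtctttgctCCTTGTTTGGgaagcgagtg

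Other motifs were counted in the same 8 windows, on both strands. The Snail E-box CACCTG was found in 1, that of Myl9, where it lies 41 to 46 bases after the start, and in 20.2% of all windows. The TEAD element CATTCC was found in 3, those of Acta2, Tagln2 and Tpm1, and in 14.7% of all windows. None of the matches given here overlapped another. A match in such a window is a description of letters, and no binding was measured in these samples.

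The 10 genes went different ways. Tgfb1i1, Acta2 and Cnn2 were at least 2-fold higher in Snail-induced Flk1+ than in untreated Flk1- cells, Tagln2 was higher in Flk1+ than in Flk1- cells of the Snail-induced condition, Cnn1 was at least 2-fold lower in Snail-induced Flk1+ than in untreated Flk1- cells, and Tagln, Myl9, Tpm1, Tpm2 and Actn1 stayed within 1.5-fold in all 3 comparisons by their brightest probe set. All 10 genes reached the floor on all 3 arrays by that probe set; of the 22 probe sets, 17 did so on all 3 arrays, 1 on 2 of them, and 4 on none. The intensities ran upwards from untreated Flk1- through Snail-induced Flk1- to Snail-induced Flk1+ in 4 genes (Acta2, Actn1, Tgfb1i1, Cnn2) and downwards in 1 (Cnn1).

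**Figure D1:**
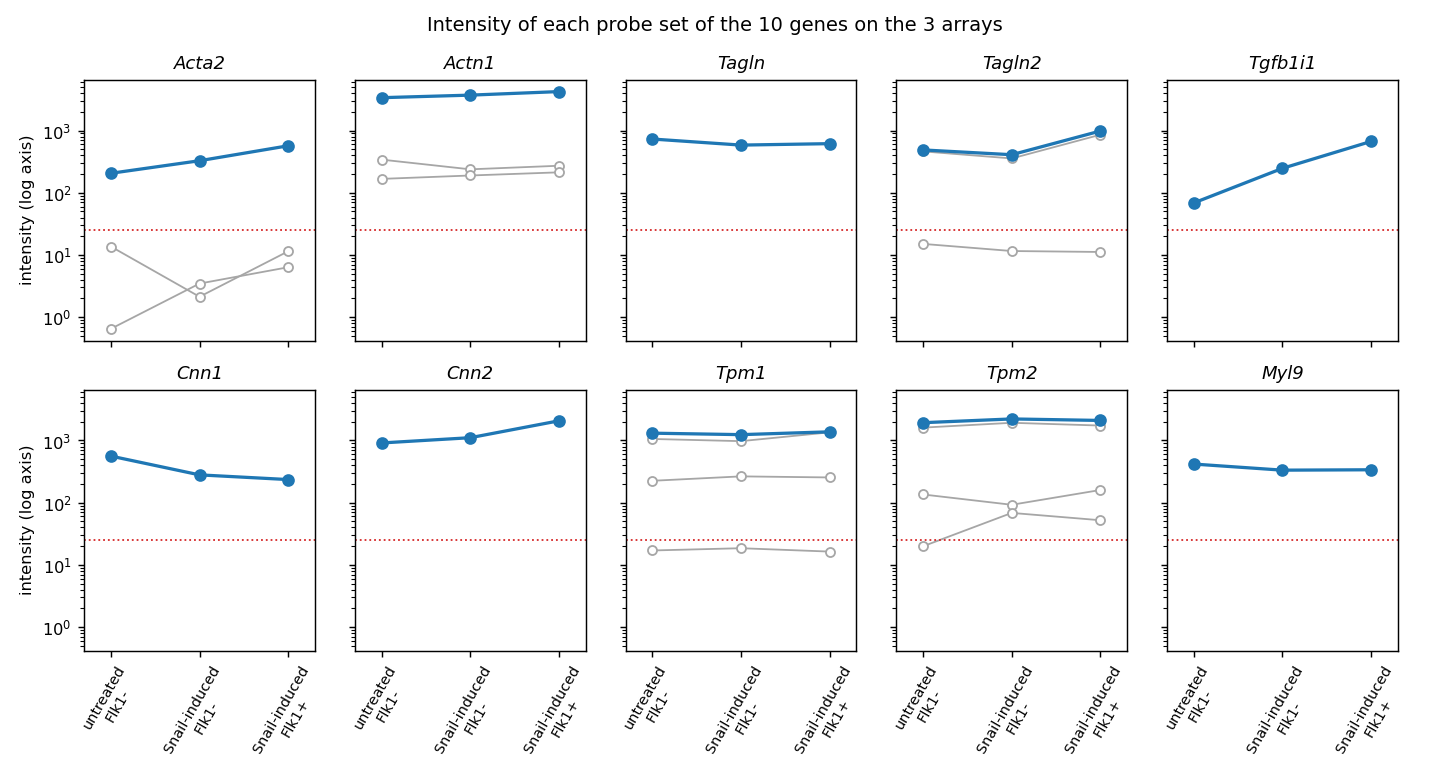
Intensity (log axis) of every probe set of the 10 genes on the 3 arrays, 1 array per group; filled blue points are the brightest probe set of each gene, open grey points the others, and the dotted line is the floor of 25.6. Tgfb1i1 runs from 68.6 to 669, Cnn1 runs downwards from 561 to 235, and Tagln, Myl9, Tpm1, Tpm2 and Actn1 are nearly level by their brightest probe set.

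Among the genes of stress fibres and focal adhesions, Tgfb1i1 differed most. It encodes Hic-5, a LIM protein of focal adhesions in the paxillin family, known as induced by TGF-beta1. Its single probe set (1418136_at) gave 68.6, 247 and 669, lowest in untreated Flk1- and highest in Snail-induced Flk1+ cells. Snail-induced Flk1- cells were 3.28-fold above untreated Flk1- cells, a log2 difference of 1.71, and Snail-induced Flk1+ cells were 2.64-fold above Snail-induced Flk1- cells, a log2 difference of 1.40. From the first array to the last the fold was 8.68. It was the only one of the 10 past 2-fold in all 3 comparisons.

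Acta2 encodes smooth muscle alpha-actin, the actin isoform of contractile smooth muscle and myofibroblast stress fibres. Its brightest probe set (1416454_s_at) gave 205, 327 and 569. Each step was under 2-fold, 1.57-fold with Snail induction and 1.72-fold between the Snail-induced sorts, and from untreated Flk1- to Snail-induced Flk1+ the fold was 2.69. With the mean of all its probe sets the log2 difference with Snail induction fell from 0.65 to 0.0025, and that from the first array to the last from 1.43 to 0.64. The value rests on a single probe set, since its other two stayed under the floor on all arrays, at most at 13.7 and 6.35. The suffix of the bright one marks probes that can match more than 1 transcript, and actin genes are near-identical over much of their coding sequence, so the share of Acta2 itself in the signal is uncertain. Of the striated muscle actins, Actc1 stood at 157, 209 and 252 and Acta1 at 42.7, 52.9 and 45.1.

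Actn1 encodes alpha-actinin-1, which crosslinks actin filaments in stress fibres and at focal adhesions. Its brightest probe set (1428585_at) gave 3372, 3705 and 4223, a difference of 1.25-fold from the first array to the last. Another one gave 167, 189 and 213 in the same order. The remaining one gave 341, 238 and 272, highest in untreated Flk1- cells, so the probe sets disagree on the direction against that array. Between the Snail-induced sorts all 3 were slightly higher in Flk1+ cells. None differed by as much as 2-fold in any comparison.

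The transgelins are small calponin-like proteins that bind actin filaments. Tagln, also called SM22-alpha and a marker of smooth muscle, gave 730, 583 and 615 by its single probe set (1423505_at). It was 1.25-fold lower in Snail-induced than in untreated Flk1- cells and 1.05-fold apart between the Snail-induced sorts. Tagln2, the more widely expressed transgelin, gave 488, 408 and 983 by its brightest probe set (1426529_a_at) and 462, 356 and 856 by the second. Both put the Flk1+ array highest and the Snail-induced Flk1- array lowest. Snail-induced Flk1+ cells were 2.37-fold above Snail-induced Flk1- cells by either probe set and 2.00-fold above untreated Flk1- cells by the brightest, with a log2 difference of 0.997, just short of the threshold. Another Tagln2 probe set was under the floor on all arrays. In the comparison of the sorts the log2 difference of Tagln2 exceeded that of Tagln by 1.17.

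Calponins bind actin and slow the myosin motor. Cnn1, the smooth muscle calponin, was the only one of the 10 that was at least 2-fold lower anywhere. Its single probe set (1417917_at) gave 561, 280 and 235, with untreated Flk1- cells apart from both Snail-induced arrays. The fold was 1.97 lower with Snail induction, just short of the threshold, 1.18 lower from Snail-induced Flk1- to Flk1+ cells, and 2.33 lower from the first array to the last. Cnn2, the calponin of non-muscle cells, ran the other way: its single probe set (1450981_at) gave 912, 1108 and 2071, which is 1.21-fold, 1.86-fold and 2.26-fold higher in the same comparisons. The log2 difference of Cnn2 exceeded that of Cnn1 by 1.26 with Snail induction, by 1.14 between the sorts and by 2.39 from untreated Flk1- to Snail-induced Flk1+ cells. The Cnn2 promoter printed above holds a strict CArG box and the Cnn1 window holds none, which says only that these letters are not in that window.

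Tropomyosins lie along the actin filament and set which myosins and crosslinkers reach it; Tpm1 and Tpm2 each give several isoforms by alternative exons. The brightest Tpm1 probe set (1423049_a_at) gave 1310, 1241 and 1378. Another gave 1058, 975 and 1351, which is 1.38-fold higher in Flk1+ than in Flk1- cells of the Snail-induced condition, and the remaining measured one gave 225, 265 and 255. Tpm2 gave 1932, 2219 and 2098 by its brightest probe set (1419738_a_at) and 1609, 1924 and 1737 by the second, both slightly highest in Snail-induced Flk1- cells. The 2 dim Tpm2 probe sets disagreed with each other. One gave 136, 92.6 and 160, lowest in Snail-induced Flk1- cells and so against the bright ones. The other had the order of the bright ones, at 19.9, 68.5 and 52.2, and was at least 2.68-fold and at least 2.04-fold above untreated Flk1- cells in the Snail-induced arrays. Its suffix marks probes that can match other sequences.

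Myl9 encodes the regulatory light chain of smooth muscle and non-muscle myosin II, whose phosphorylation switches the motor on. Its single probe set (1452670_at) gave 418, 333 and 338, which is 1.25-fold lower with Snail induction and 1.01-fold apart between the sorts. The 2 Snail-induced arrays were thus nearly equal and the untreated array slightly higher. Its promoter, printed above, holds a strict and a relaxed CArG match. The related light chain gene Myl12a stood at 6388, 6610 and 8244 and Myl12b at 3309, 2529 and 2184.

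**Figure D2:**
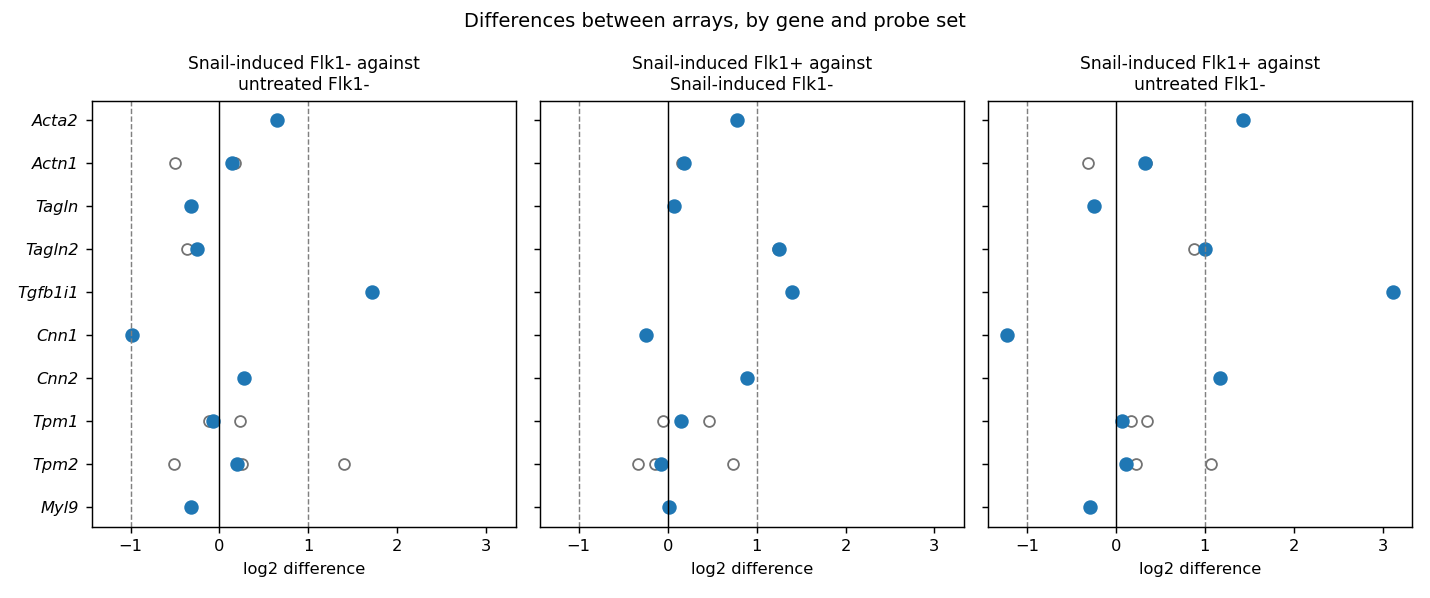
Log2 differences of the 10 genes in the 3 comparisons; filled points are the brightest probe set of a gene, open points its other probe sets at or above the floor on at least 1 array, and dashed lines mark 2-fold. Tgfb1i1 is past the upper line in every panel, Cnn1 is at -0.98 in the first panel and -1.22 in the third, and the open points of Tpm2 spread to both sides of 0 in the first panel.

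The comparison of Snail-induced with untreated Flk1- cells asks what differed with Snail induction by doxycycline among cells sorted as Flk1-. By the brightest probe set 1 of the 10 genes, Tgfb1i1, was at least 2-fold higher, where 2.95% of all measured genes were, and 0 were at least 2-fold lower, where 2.03% were. With 10 genes a count of 1 says nothing about the set. Of the 10, 5 lay above 0 and 5 below it, and 7 of the 10 were within 1.5-fold, as were 83.7% of all measured genes. The median log2 difference was 0.029 beside 0.038 over all measured genes. Centring each array on its median changed the split of all genes past 2-fold from 412 higher and 283 lower to 314 higher and 398 lower. Cnn1 passed 2-fold with that centring, with quantile normalisation and with no offset, at log2 differences of -1.08, -1.08 and -1.004. Epithelial markers moved with this comparison, with summed intensities of 15330, 6281 and 1867 and 6 of 7 at least 2-fold lower, beside the 2.03% above. Fibroblast markers summed to 528, 1017 and 832. Of 7 measured ones 4 were at least 2-fold higher, beside the 2.95% above. Col3a1 was at least 4.77-fold, Pdgfrb 2.64-fold, Dcn 2.37-fold and Fbln2 2.26-fold higher. Of these, Pdgfrb also marks pericytes. Col1a2 was 1.19-fold higher, Thy1 1.01-fold lower and Lum at least 1.30-fold lower. Between the sorts 0 of the 7 passed 2-fold upwards, beside 4.85% of all measured genes, so a count of 0 says little. Downwards 2 passed it, beside 4.89%. Dcn was 4.19-fold lower in Flk1+ cells, and Lum, at 22.1 and 2.57, was under the floor in both sorts. Of the fibroblast markers Col1a1 and Postn were under the floor on all arrays and 6 of the 9 were above it on each array. The part of the cells that these markers stand for in the differences of Tgfb1i1 and Cnn1 was not tested.

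The comparison of the 2 Snail-induced sorts asks how Flk1+ cells differed from Flk1- cells. Tgfb1i1 and Tagln2, 2 of the 10, were at least 2-fold higher in Flk1+ cells, beside 4.85% of all measured genes, and 0 were lower, beside 4.89%. In 8 genes the difference was above 0, among them Cnn2 at 0.90 and Acta2 at 0.78. It was small in Actn1 at 0.19, Tpm1 at 0.15, Tagln at 0.076 and Myl9 at 0.020. The median was 0.17 beside 0.0005 over all measured genes, and 6 of the 10 were within 1.5-fold, as were 75.9% of all. With 10 genes these counts say little about the set. Leaving out probe sets whose suffix marks several possible transcripts removed Tagln2 and Acta2 from the measured genes and left 1 gene, Tgfb1i1, past 2-fold. Endothelial markers moved with this comparison. Without Kdr, whose product was sorted on, the summed intensity of 8 such markers was 554, 936 and 4532, 4, 4 and 8 of them were above the floor on the 3 arrays, and 7 were at least 2-fold higher in Flk1+ cells, among them Pecam1 and Tie1 with bounds of only 1.75-fold and 1.67-fold. Epithelial markers moved the other way, with 5 of 7 at least 2-fold lower in Flk1+ cells and a median log2 difference of -1.89. Of the 6 pluripotency markers, whose intensities summed to 21897, 24244 and 16618, Nanog, Zfp42 and Sox2 were 7.51-fold, 4.03-fold and 3.38-fold lower in Flk1+ cells and 0 passed 2-fold upwards. Platelets are known to express Tagln2 and Myl9. Blood and platelet markers summed to 499.8, 315 and 537, with a median log2 difference of 0.60 and 2 of 7 past 2-fold higher in Flk1+ cells: Ptprc, the leukocyte gene CD45, from 7.46 to 60.6, and Hba-x, an embryonic globin gene, from 13.9 to 38.1, at least 2.37-fold and at least 1.49-fold. The platelet genes Itga2b (295, 182 and 262) and Gp9 (47.4, 41.1 and 78.3) were higher in Flk1+ than in Flk1- cells of the Snail-induced condition without passing 2-fold, and Pf4 stood at 28.5, 21.6 and 22.9. Of 6 pericyte markers 3 were measured. Notch3 stood at 1721, 2229 and 1977 and Rgs5 at 23.7, 28.2 and 21.1, while Pdgfrb, at 71.3, 204 and 181, was 2.64-fold higher with Snail induction and 1.12-fold lower between the sorts; Cspg4, Abcc9 and Kcnj8 were under the floor on all arrays. The lowest intensity of any probe set was 0.5, so a marker value above 0 does not show that a transcript was present. The part of the cells that these marker lists stand for in the differences of Tagln2, Tgfb1i1, Cnn2 and Acta2 was not tested.

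Snail-induced Flk1+ against untreated Flk1- cells joins induction with the gate; its log2 differences are those of the other 2 comparisons added up and bring no further evidence. Tgfb1i1, Acta2 and Cnn2, 3 of the 10, were at least 2-fold higher, beside 8.1% of all measured genes, and Cnn1 was lower, beside 6.41%. The median over the 10 was 0.22 and that over all measured genes 0.015, and 5 of the 10 were within 1.5-fold, as were 69.2% of all.

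**Figure D3:**
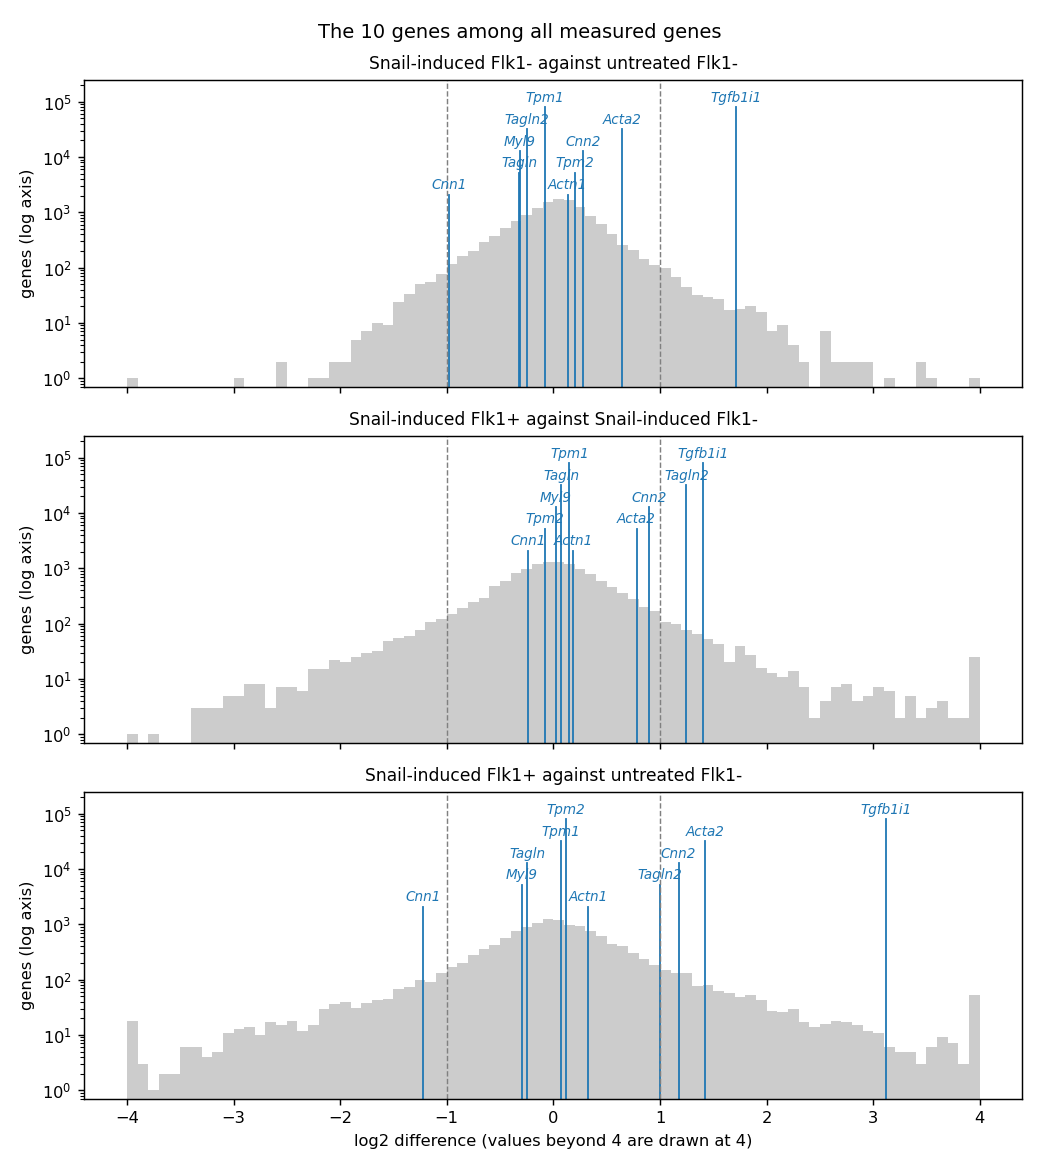
Histograms of the log2 difference of all 13969 measured genes in the 3 comparisons (number of genes on a log axis), with a blue line for each of the 10 genes by its brightest probe set and dashed lines at 2-fold. Most of the 10 lie in the bulk of the genes; Tgfb1i1 lies beyond the upper line in each panel, at 1.71, 1.40 and 3.12.

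Genes that act on SRF were then read from a list. Of 9 genes 8 were measured, and Elk3 alone passed 2-fold. It did so upwards in all 3 comparisons, beside 2.95%, 4.85% and 8.1% of all measured genes. Elk3 encodes Net, an ETS factor that forms ternary complexes with SRF at serum response elements and is active in endothelium; it stood at 149, 709 and 3336, 4.53-fold and 4.66-fold apart step by step, and all 4 of its probe sets were higher at each step. Srf itself gave 887, 1047 and 703, highest in Snail-induced Flk1- cells. The cofactor genes Mrtfa and Mrtfb gave 91.7, 118 and 108, and 627, 960 and 981. The list medians were 0.37, -0.042 and 0.17 in the 3 comparisons, beside 0.038, 0.0005 and 0.015 over all measured genes.

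Other target genes of SRF and MRTF, 21 in all, were measured without exception. With Snail induction 0 of the 21 passed 2-fold in either direction. Of all measured genes only 2.95% were higher and 2.03% lower there, so a count of 0 says little. The median log2 difference was 0.26 beside 0.038 over all measured genes. Between the sorts the median was 0.50 beside 0.0005 over all measured genes. There 6 were at least 2-fold higher in Flk1+ cells and 0 lower, beside the 4.85% and 4.89% of all measured genes given above. Those 6 were Filip1l, Tes, Tln1, Cald1, Tpm4 and Lpp. Cald1 encodes caldesmon, which like calponin restrains myosin on actin, and stood at 1171, 2248 and 5332, 2.37-fold higher in Flk1+ cells and in the same direction by all 4 of its probe sets. Tln1, which encodes talin-1 and ties integrins to actin, stood at 426, 520 and 1321, a 2.51-fold difference. Tes and Lpp, LIM proteins of focal adhesions, were 2.69-fold and 2.11-fold higher, and Tpm4, a non-muscle tropomyosin gene, was 2.22-fold higher, from 1994 to 4444. Filip1l, at 6.30, 19.2 and 197, was at least 7.70-fold higher in Flk1+ cells. Against untreated Flk1- cells Vcl, which encodes vinculin, and Fhl2, a LIM cofactor, also passed 2-fold, at 2.04-fold and 2.23-fold. The cytoplasmic actin genes Actb and Actg1 differed by at most 1.26-fold and 1.03-fold over the 3 arrays. Ccn2, at 1711, 1783 and 1001, went the other way in the Flk1+ array without passing 2-fold.

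Paralogs of the 10 genes gave 14 measured of 16. Besides Tpm4, Pxn, which encodes paxillin and gives the family of Tgfb1i1 its name, stood at 558, 800 and 1379, 2.45-fold higher in the last array than in the first, with 1 of its 3 probe sets going the other way. Actn2, the alpha-actinin of striated muscle, stood at 35.2, 44.5 and 6.34, at least 1.74-fold lower in Flk1+ than in Flk1- cells of the Snail-induced condition. The non-muscle relatives Cnn3 (6844, 7191 and 8926) and Actn4 (1857, 1693 and 1680) were within 1.5-fold over the 3 arrays. In the smooth muscle differentiation list, 9 of 12 genes were measured, and in each of the 2 comparisons that share the Snail-induced Flk1- array 0 passed 2-fold in either direction. Of all measured genes 2.95% were higher and 2.03% lower with Snail induction, and 4.85% and 4.89% between the sorts, so 0 of 9 says little. Des, given above, was 2.49-fold higher from the first array to the last.

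Genes of the motor that works on these filaments were read singly. The non-muscle myosin heavy chain gene Myh9 stood at 2797, 3362 and 4768, and Myh10 at 3103, 3402 and 4314. Mylk, whose kinase phosphorylates the light chain encoded by Myl9, was lowest in Snail-induced Flk1- cells by its brightest probe set, with the values given above, while its other measured probe set was higher with Snail induction.

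TGF-beta is known to induce Tgfb1i1 and Acta2, so ligands, receptors and Smads of that pathway were listed, 11 of 12 measured. Among the receptors, Tgfbr2 stood at 44.5, 121 and 587 and Tgfbr3, the co-receptor betaglycan, at 41.5, 120 and 587. Both were more than 2-fold higher at each step, 2.42-fold and 2.53-fold with Snail induction and 4.57-fold and 4.62-fold between the sorts, although 1 of the 2 Tgfbr3 probe sets went the other way in the first step. Of the ligands, Tgfb1 (49.9, 39.8 and 168) and Tgfb2 (46.2, 53.3 and 177) were 3.60-fold and 2.97-fold higher in Flk1+ than in Flk1- cells of the Snail-induced condition, and Tgfb3 (18.7, 47.7 and 29.8) was at least 1.87-fold higher with Snail induction. Tgfbr1 and the 4 Smad genes listed were within 2-fold throughout. By the log2 difference 3 of the 11 were at least 2-fold higher with Snail induction, beside 2.95% of all measured genes; without Tgfb3, whose bound is under 2-fold, they were 2. Between the sorts 4 were higher, beside 4.85%. In each comparison 0 were lower, beside 2.03% and 4.89%. The medians were 0.17 and 0.26, beside 0.038 and 0.0005 over all measured genes. Signalling itself was not measured.

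**Figure D4:**
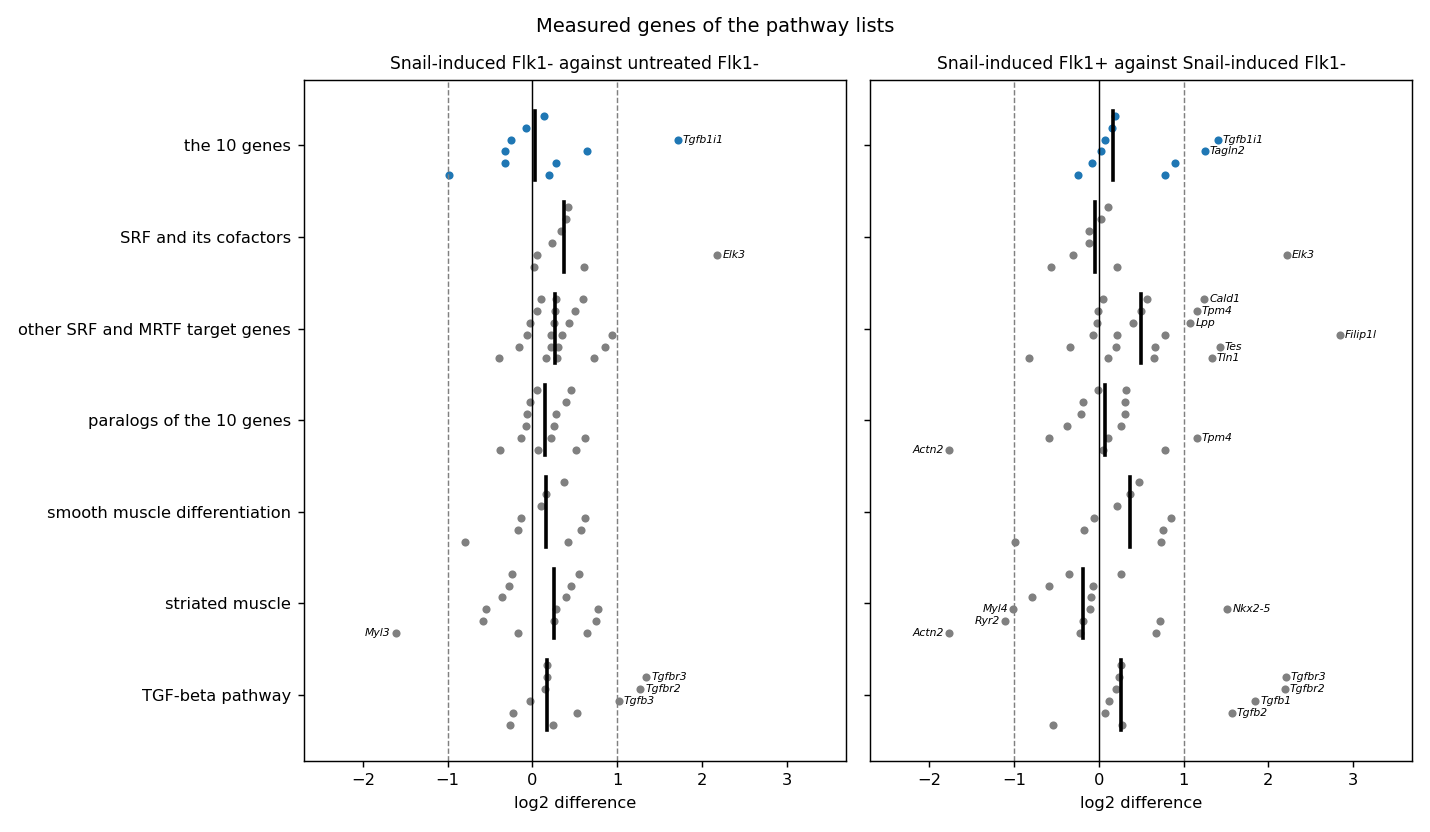
Log2 differences of the measured genes of each list with Snail induction (left) and between the Snail-induced sorts (right), 1 point per gene by its brightest probe set; black bars are list medians, dashed lines mark 2-fold and genes past them are named, also those whose dimmer value is under the floor (Tgfb3, Myl3, Filip1l, Actn2, Myl4 and Ryr2). The 21 other SRF and MRTF target genes have 0 past 2-fold in the left panel and 6 on the higher side in the right panel. Of all measured genes 2.95% were higher and 2.03% lower in the left comparison, and 4.85% and 4.89% in the right.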

How the data were processed

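The values deposited by the authors are 1 linear intensity per probe set and array; per the labels' protocols, biotinylated cRNA was made from 2 ug total RNA by the Affymetrix procedure. The sources used here do not give the summary method, scaling or software. Probe sets were named from the platform annotation, and its symbols were brought up to date through Entrez IDs in RefSeq's GRCm38.p6 gene list; 34945 of 45037 had 1 symbol and were used. From the intensities log2(value + 9.53) was computed, where 9.53 is the 20th percentile of the pooled intensities. For each gene the probe set of highest mean log2 value was used. The written design said only highest mean; the log2 reading was taken after both had been computed, because its 13969 measured genes equalled the number in an earlier account of these data. Where the dimmer value was under the floor, the brighter one over the floor is given as a lower bound. In the lists other than the cell type markers, genes were named when at least 2-fold apart in any comparison. Of the cell type markers past 2-fold only some were named. Further genes of the lists were picked after their values were seen. Among these were Srf, Mrtfa, Mrtfb, Actc1, Acta1, Myl12a, Myl12b, Actb, Actg1, Ccn2, Cnn3, Actn4, Myh9, Myh10 and Mylk. One further gene list that was planned is not reported here. The 10 genes and all lists were chosen with earlier results of these data known. The calling step was tested on simulated data, with large changes planted in bright genes only and with little noise. That run says nothing about dim genes, disagreeing probe sets or the real noise between arrays. Promoter windows came from RefSeq. No protein sequences were used here, so a planned comparison of protein identity was not made. Tools were Python 3.11.15, numpy 2.4.6, pandas 2.3.3 and matplotlib 3.10.9. Alternatives were quantile normalisation, centring, the mean of all probe sets, leaving out suffixed probe sets, no offset, 3 other treatments of the floor, other thresholds and, added after seeing the data, the probe set of highest mean linear intensity and a relaxed CArG box.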

Additional observations from a re-analysis of the deposited data

How the results depend on the processing

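Each array stood alone for its group, so no replicate could be left out, and no paired analysis was possible because no group has replicates. With Snail induction the median over the 10 genes (0.029) turned to -0.069 with centring, -0.031 with the mean of all probe sets, -0.011 with quantile normalisation and -0.22 without suffixed probe sets, so it has no direction. In that comparison 2 genes were higher at a 1.5-fold threshold, and 1, Cnn1, was lower at that threshold, with centring, with quantile normalisation and with no offset. Between the sorts 4 genes were higher at 1.5-fold, 0 at 3-fold, and 1 with the mean of all probe sets or without suffixed ones. From untreated Flk1- to Snail-induced Flk1+ cells 1 gene was higher and 0 lower at 3-fold. Of the single genes' differences under the alternatives, 252 kept their direction and their side of 2-fold, 2 no longer passed it (Acta2 at 0.64 from untreated Flk1- to Snail-induced Flk1+ and Tagln2 at 0.82 between the sorts, both with the mean of all probe sets), 4 newly passed it (Cnn1 as above, and Tagln2 at 1.01 with no offset), and 6 that were under 2-fold changed sign (Actn1, Tpm1 and Tpm2). Many of the 252 could not have changed. The 3 other treatments of the floor left every difference of the 10 genes as it was, and so did the highest mean linear intensity. For the 5 genes with a single probe set, averaging probe sets or leaving out suffixed ones changed nothing either. The 252 is therefore no measure of robustness. The relaxed CArG box raised the genes with a match from 2 to 3. Taking the probe set of highest mean linear intensity, an alternative added after seeing the data, changed the probe set of 67 genes and of 0 of the 10, and gave 13974 measured genes, of which 419 were higher and 288 lower with Snail induction, against 412 and 283. Leaving out genes whose bound is under 2-fold, also added after seeing the data, lowered the counts over all genes from 412 to 336 higher and from 283 to 195 lower with Snail induction, and from 678 to 558 and from 683 to 570 between the sorts; 0 of the 10 genes was such a case.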

Other observations

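Striated muscle genes were read from a list. Of 19 listed genes 15 were measured on at least 1 array, as were 13969 of all 18193 genes. On all 3 arrays 7 were at or above the floor. The share of all genes that were so is not given here, so this count says nothing about striated muscle genes. The brightest were Actn3, a fast muscle alpha-actinin gene, at 233, 325 and 214, and Actc1, the cardiac actin gene. Myl3, a cardiac and slow muscle light chain gene, was at least 2.03-fold lower in Snail-induced than in untreated Flk1- cells, from 51.9 to 10.6. Nkx2-5, a cardiac transcription factor gene, stood at 50.5, 41.2 and 136 and was 2.86-fold higher in Flk1+ than in Flk1- cells of the Snail-induced condition. Actn2, Myl4 and Ryr2 passed 2-fold downwards there by their log2 difference, but to values under the floor, with bounds of at least 1.74-fold, 1.93-fold and 1.07-fold. Myl4 stood at 49.4 and 19.7 and Ryr2 at 27.3 and 7.59.

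Of the 10 genes, Tgfb1i1 had the largest range over the 3 arrays, 3.12 on the log2 scale. The 5 measured genes with the nearest profile, by Euclidean distance between log2 values centred on their mean over the 3 arrays, were Smarca2, Hs3st3a1, Lxn, Nrip1 and Heph. Hs3st3a1 was under the floor on 2 of the 3 arrays and Heph on 1, so their distances say nothing. Those of Smarca2, Lxn and Nrip1 were 0.0072, 0.10 and 0.15. Smarca2, which encodes the chromatin remodelling ATPase BRM, stood at 38.4, 147 and 405. Nrip1, a nuclear receptor corepressor gene, stood at 149, 438 and 1286. Lxn, which encodes a carboxypeptidase inhibitor, stood at 54.6, 223 and 569. A profile over 3 arrays holds little, and 59 genes, some of them under the floor on an array, lay within a distance of 0.5.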
